A study of Mus musculus with 5 samples.

Results

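The transcriptome of the lesioned caudate putamen 10 days after a photothrombotic stroke was compared with that at day 3. The 2 libraries were chosen by their time labels alone, out of 5 in the study, and no measured value entered that choice. Both came from male C57BL/6 mice aged 9 weeks, a wild-type laboratory strain, that were given the dye rose bengal at 100 mg/kg into the abdomen. Light of 532 nm and 30 mW was then led for 2 min through a fibre 3 mm below the dura of the right side, where the activated dye clots the lit vessels. The focal region was punched from frozen sections at the place shown by magnetic resonance images. Tissue of 6 animals was mixed into 1 library of total RNA per time, so there are no replicates and no test between the times can be made. The other libraries, used here only to place the levels, were taken 4 h and 1 day after stroke and from the sham side, which received the same steps except that the light came before the dye.

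Of 19221 genes in the table, 11878 reached 1 RPKM at day 3 or day 10 and were compared. RPKM scales the reads of a gene by its length and by the reads of the library, so levels can be set side by side between genes. The log2 ratio is log2((day 10 RPKM + 1)/(day 3 RPKM + 1)), a scale on which differences of weakly expressed genes look too small. A gene is called higher or lower at day 10 where this ratio is at least 1 or at most -1. Where 2 levels of a gene are given without a time, the first is that of day 3 and the second that of day 10. Plain ratios of RPKM are given as folds, with a 95% interval from the recovered reads where these were whole. Such an interval covers counting error only, not the spread between animals.

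In the days after a stroke the dead tissue is cleared by microglia, the resident phagocytes of the brain, and by monocytes that enter from the blood. Microglia and astrocytes near the lesion divide and astrocytes build up intermediate filaments. Later, phagocytes handle the lipid of digested myelin and cells, antigen is presented to lymphocytes, and a scar forms. Cell division, iron handling, lipid transport, antigen presentation and neuronal genes are therefore described in turn.

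At day 10, 80 genes (0.674% of those compared) were called higher and 354 (2.98%) lower, and 11444 lay between the limits. After subtracting the median of genes of like length, the counts were 114 and 276. Of the called genes, 39 of the higher and 230 of the lower ones are protein coding, and with a pseudocount of 0.1 RPKM the counts over all genes were 221 and 562. The median log2 ratio over all 11878 genes was -0.03, with quartiles at -0.32 and 0.23. With the pseudocount of 1 RPKM, a difference past 4-fold was reached by 12 genes upwards and 58 downwards, and past 8-fold by 0 and 12. Plain ratios of weakly expressed genes were larger, such as that of Apoc4, 25.1-fold higher at day 10. Just past the limits, and so called, lay Slc1a2 at 1.002, Gys1 at -1.004 and Arhgdib at -1.001. Just short of them, and so not called, lay Chd3 at 0.996, Pcna at -0.999 and Omp at -0.998. Of the 66 gene lists examined, 3 had a median of at least 0.5 and 7 a median of at most -0.5. The higher lists were those of MHC class II and co-stimulation, of T and NK cells, and of haemoglobin and red cells. The lower lists were those of mitosis, DNA replication, A2 and pan-reactive astrocytes, coagulation, actin and the mitochondrial genome.

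**Figure D1:**
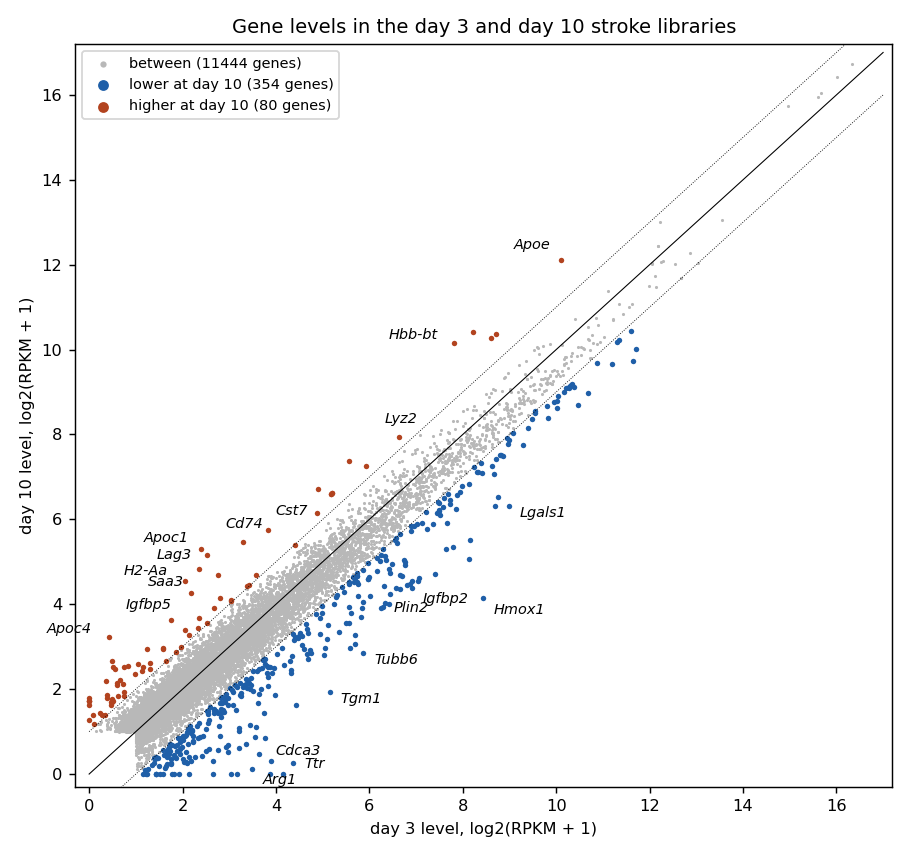
Level of each of 11878 genes in the day 3 library (x axis) and the day 10 library (y axis), both as log2(RPKM + 1). The solid line marks equal levels and the dotted lines a log2 ratio of 1 or -1. The 354 lower genes outnumber the 80 higher ones, and Apoe is the most abundant of the protein coding genes called higher.

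Markers of the caudate putamen, the tissue of the label, were present in both libraries. Whether either library held this tissue alone, or both held the same share of it, was not tested. The medium spiny neuron, the main output cell of the caudate putamen, was marked by Ppp1r1b (DARPP-32) at 657 RPKM at day 3 and 849 RPKM at day 10, Penk (preproenkephalin) at 474 and 388 RPKM and Drd2 (dopamine receptor D2) at 55.1 and 69.5 RPKM. Cortical excitatory markers were also present, Slc17a7 (the vesicular glutamate transporter VGLUT1) among them at 56.5 and 49.99 RPKM. Of markers of the choroid plexus and ependyma, Ttr (transthyretin) stood at 77.4 RPKM in sham, then 729 (4 h), 303 (day 1), 19.6 (day 3) and 0.205 (day 10), while Foxj1, a gene of ciliated cells, stood at 6.18 and 6.47 RPKM. Folr1 and Kcnj13, which define the choroid plexus, were at 0.247 and 0.145 RPKM and at 0.0932 and 0.0164 RPKM. How much punched choroid plexus or ventricle wall each library held, and its part in the ratio of Ttr, was not tested.

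The 2 libraries held 42261786 reads at day 3 and 48013847 at day 10, and the 5 libraries spanned the same range. A single read on a transcript of 2 kb therefore counted as 0.0118 RPKM at day 3 and 0.0104 at day 10. The log2 ratio moved with gene length. With protein coding genes in 5 equal classes from the shortest to the longest, the median ratio was -0.28, -0.15, -0.03, 0.08 and 0.20, and the number of genes called lower was 114, 60, 29, 21 and 6. Over 5 classes of GC content the medians lay between -0.08 and 0.04. Medians of some lists of short or long genes are therefore given also after subtracting the median of genes of like length ("length-centred"), and the part of gene length in single ratios was not tested. The mitochondrial genome took 4.30% of reads at day 3 and 2.82% at day 10, and the Gm42418 locus, which carries ribosomal RNA sequence, 9.11% and 11.7%.

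**Figure D2:**
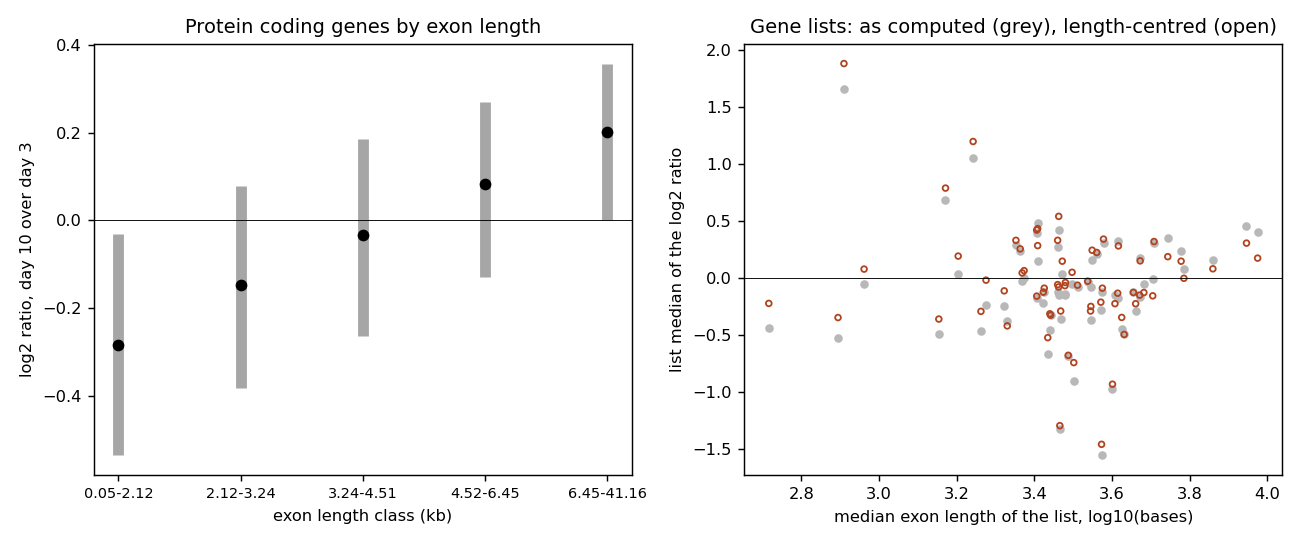
Left: median (points) and quartiles (bars) of the log2 ratio in 5 equal classes of exon length of protein coding genes, from -0.28 in the shortest to 0.20 in the longest. Right: the median of each of 66 gene lists against its median exon length, as computed (grey) and length-centred (open circles), in which mitosis stays lowest and haemoglobin highest.

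Genes of cell division were lower at day 10 than at day 3 as a group. Of 20 mitosis genes compared, 15 were called lower and all 20 lay below 0, with a median log2 ratio of -1.56 (length-centred -1.46) against 2.98% of all genes called lower. The list holds 30 genes, and all 20 compared reached 1 RPKM at day 3 alone, so they had to lie below 0. Without that floor, over all 30, the median was -0.99. Cdca3, which triggers the destruction of mitotic entry inhibitors, was measured at 0.334 RPKM in sham, then 0.243 (4 h), 0.196 (day 1), 12.5 (day 3) and 0.792 (day 10). Its day 3 level was 15.8-fold (counting interval 11.9 to 21.04) above that at day 10, and the other libraries stayed below 1 RPKM. Cdc20, the activator of the anaphase-promoting complex, stood at 0.655 RPKM in sham, then 0.676 (4 h), 0.416 (day 1), 10.8 (day 3) and 0.836 (day 10), again high only in the day 3 library. Plk1, a kinase of mitotic entry, stood at 6.83 RPKM at day 3 and 0.436 RPKM at day 10, a difference of 15.7-fold (counting interval 10.3 to 25.1). Cdk1, the kinase that drives mitosis, and its partner Ccnb2 (cyclin B2) stood at 4.94 and 0.511 RPKM and at 4.37 and 0.354 RPKM. The ubiquitin-conjugating enzyme Ube2c stood at 6.598 RPKM at day 3 and 0.553 RPKM at day 10, and Aurka and Aurkb, the Aurora kinases, at 3.38 and 0.313 RPKM and 2.14 and 0.148 RPKM. The smallest difference in the list was that of Kif20a, a kinesin of cytokinesis, with a log2 ratio of -0.64. Cenpm, a centromere protein, and Pimreg, a mitotic regulator, were outside the list and among the 15 lowest protein coding genes, at 9.32 and 0.642 RPKM and 8.21 and 0.519 RPKM.

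Promoters of mitosis genes are known for a short element, the cell cycle homology region, that lies near CCAAT boxes. The promoter windows of 4 mitosis genes are shown because these genes were high together at day 3 only. Each runs from 250 bases before to 50 bases after the start of transcription in RefSeq on GRCm38.p6, 5′ to 3′ on the strand of the gene. Capitals mark TTTGAA or TTTAAA and CCAAT, the last also as ATTGG on the other strand. The windows are chr4:118437294-118437593 (minus strand) for Cdc20, chr7:122159185-122159484 (plus) for Plk1, chr9:70421505-70421804 (minus) for Ccnb2 and chr6:124829926-124830225 (plus) for Cdca3.
Cdc20: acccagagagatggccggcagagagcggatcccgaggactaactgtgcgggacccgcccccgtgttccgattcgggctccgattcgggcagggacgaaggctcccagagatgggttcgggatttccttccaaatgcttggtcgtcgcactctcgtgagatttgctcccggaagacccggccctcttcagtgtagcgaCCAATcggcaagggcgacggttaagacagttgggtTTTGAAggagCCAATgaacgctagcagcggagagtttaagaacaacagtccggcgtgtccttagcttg
Plk1: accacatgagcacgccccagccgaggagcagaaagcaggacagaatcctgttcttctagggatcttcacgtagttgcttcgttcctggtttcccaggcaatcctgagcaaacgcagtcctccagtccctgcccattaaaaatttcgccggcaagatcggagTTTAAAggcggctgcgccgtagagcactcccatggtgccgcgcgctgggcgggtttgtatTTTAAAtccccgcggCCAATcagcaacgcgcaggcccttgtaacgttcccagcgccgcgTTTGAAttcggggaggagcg
Ccnb2: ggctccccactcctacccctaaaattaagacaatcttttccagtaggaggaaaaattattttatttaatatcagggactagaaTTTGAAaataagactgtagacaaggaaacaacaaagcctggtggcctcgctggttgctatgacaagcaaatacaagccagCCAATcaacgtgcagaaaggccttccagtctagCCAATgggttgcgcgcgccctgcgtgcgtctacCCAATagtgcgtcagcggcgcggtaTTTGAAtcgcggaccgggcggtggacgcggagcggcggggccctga
Cdca3: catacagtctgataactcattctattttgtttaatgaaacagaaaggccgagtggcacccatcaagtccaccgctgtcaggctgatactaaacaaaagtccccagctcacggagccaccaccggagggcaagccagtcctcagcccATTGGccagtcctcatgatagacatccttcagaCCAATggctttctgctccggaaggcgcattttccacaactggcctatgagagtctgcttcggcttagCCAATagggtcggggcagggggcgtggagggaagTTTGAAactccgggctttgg
In Cdc20, TTTGAA began at base 233 of the window and CCAAT at bases 198 and 243. In Cdca3, TTTGAA began at base 281. Of the 20 mitosis genes compared, 14 had a window in the RefSeq table. TTTGAA or TTTAAA occurred in all 14 of them, against 27.6% of all 32851 windows, CCAAT in 13, against 37.4%, and both in 13 (92.9%), against 10.7%. Both motifs were searched on both strands, and a match of one can share at most 1 base with a match of the other. A match is a description of these letters and not evidence that a factor bound.

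The DNA replication list followed with smaller ratios. All 19 members compared lay below 0 and 8 were called lower, with a median of -0.97 (length-centred -0.93). Of these, 10 reached 1 RPKM at day 3 alone and had to lie below 0, and without the floor, over all 25 listed genes, the median was -0.78. Tk1 (thymidine kinase) and Rrm2 (a subunit of ribonucleotide reductase), which supply deoxynucleotides, stood at 5.76 and 0.473 RPKM and 3.78 and 0.331 RPKM, differences of 12.2-fold (counting interval 9.33 to 16.2) and 11.4-fold (counting interval 7.39 to 18.7). Of the helicase subunits, Mcm5 stood at 7.899 RPKM at day 3 and 1.86 RPKM at day 10 and Mcm6 at 1.33 and 0.299 RPKM, the latter inside the limit with a log2 ratio of -0.85. Pcna, the sliding clamp, stood at 6.46 RPKM in sham, then 9.84 (4 h), 11.3 (day 1), 15.6 (day 3) and 7.298 (day 10), so its level was above sham from 4 h on. Of the motifs shown for the mitosis list, TTTGAA or TTTAAA occurred in 8 and CCAAT in 9 of 18 matched genes, that is in 34.8% and 47.8% of their windows, against the 27.6% and 37.4% of all windows. Of the cell cycle inhibitors and D cyclins, 4 of 10 were called lower. Ccnd1 (cyclin D1), which admits cells to the cycle, stood at 19.3 RPKM at day 3 and 5.85 RPKM at day 10, and Cdkn1a (p21), which stops it, at 24.6 and 9.02 RPKM, so an activator and an inhibitor were lower together.

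Replication-dependent histone genes, which are transcribed during DNA synthesis, did not move as 1 block. Over the list, 11 of 35 genes compared were called lower, with a median of -0.44 (length-centred -0.22), and 8 reached 1 RPKM at day 3 alone. By type, with further copies, the H2A genes had a median log2 ratio of -1.90 (length-centred -1.73), and 12 of 16 were called lower. Those of H3 had a median of -0.76 (length-centred -0.58), with 2 of 9 called lower. The H2B genes had a median of -0.29 (length-centred -0.13), with 0 of 17 called lower. The H4 genes had a median of 0.24 (length-centred 0.43), with 0 of 10. Hist1h2ap stood at 37.7 RPKM in sham, then 32.96 (4 h), 25.2 (day 1), 282 (day 3) and 44.8 (day 10), and Hist1h2ao at 133 and 23.6 RPKM. The H2A copies are close to identical and how reads that match several copies were treated is not stated in the sources used here. Values of single copies are therefore uncertain. These messages lack the poly(A) tail of other messages, and all are short.

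**Figure D3:**
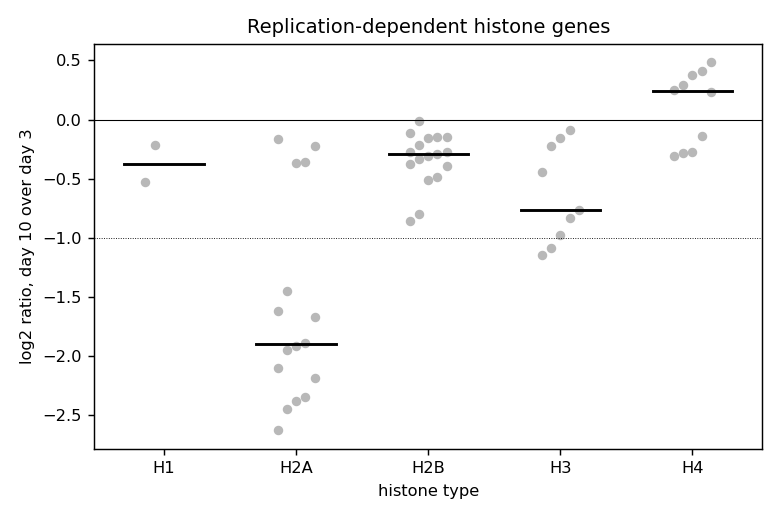
Log2 ratio of each replication-dependent histone gene compared (points) by histone type, with the median of each type (bars) and the limit of -1 (dotted line). The H2A genes lie lowest, with a median of -1.90, and the H4 genes highest, with a median of 0.24.

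Of 16 haem and iron genes compared, 5 were called lower and 0 higher, and 11 did not pass the limit, with a median of -0.32. Hmox1, the inducible haem oxygenase, had the lowest log2 ratio of all 11878 genes (-4.27) and lies at chr8:75093621-75100589, plus strand. It stood at 31.8 RPKM in sham, then 23.5 (4 h), 226 (day 1), 343 (day 3) and 16.8 (day 10), so day 3 was 20.5-fold (counting interval 18.96 to 22.1) above day 10 and the day 10 level was below that of sham. By plain ratio, the less abundant Arg1 and Ttr differed more, with day 3 120.9-fold and 95.8-fold above day 10. Ftl1, the ferritin light chain that stores iron, stood at 471 RPKM in sham, then 366 (4 h), 875 (day 1), 3333 (day 3) and 1031 (day 10). A day 3 excess of 3.23-fold (counting interval 3.19 to 3.27) was thus measured for the light chain, whereas that of Fth1, the ferritin heavy chain, was 1.47-fold (counting interval 1.46 to 1.48). Ftl1 has near-identical pseudogenes, and Ftl1-ps1 was itself called lower, so the light chain value is uncertain. The haem scavenger Hpx (hemopexin) was another of the 5 at 2.005 and 0.486 RPKM, the others being Trf and Lcn2, and Blvrb, a biliverdin reductase, stood within the limit at 16.7 and 9.598 RPKM.

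Among NRF2 antioxidant genes, 4 of 23 were called lower, 0 higher, and 21 lay below 0, with a median of -0.46 (length-centred -0.31). After Hmox1 came the metallothioneins, small metal-binding proteins. Mt2 stood at 404 RPKM in sham, then 559 (4 h), 2372 (day 1), 909.7 (day 3) and 336 (day 10), so its day 10 level was also below sham, and Mt1 at 716 and 330.3 RPKM. Prdx1 (peroxiredoxin 1) stood at 74.7 and 34.7 RPKM. Nqo1 and Gclc, also classical targets of the factor, had log2 ratios of 0.16 and 0.12. The antioxidant motif TGACNNNGC, with N for any base and both strands searched, occurred in 8 of 18 matched genes, that is 34.8% of their windows against 12.4% of all windows.

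Glycolytic genes were lower in part: 5 of 22 were called lower and 17 lay below 0, with a median of -0.50. Slc16a3, which exports lactate, stood at 0.82 RPKM in sham, then 1.02 (4 h), 3.56 (day 1), 14.7 (day 3) and 2.62 (day 10), and Ldha, which makes lactate, at 189 and 77.95 RPKM. Eno1, Gapdh and Hk3 (enolase 1, glyceraldehyde-3-phosphate dehydrogenase and hexokinase 3) were also called lower, at 341 and 134 RPKM, 671 and 284 RPKM and 11.9 and 3.004 RPKM. The copies Eno1b and Gapdh-ps15 had log2 folds of -1.28 and -1.15 as deposited by the authors, so the single values of Eno1 and Gapdh are uncertain. The isozymes that neurons favour were level, with log2 ratios of -0.05 for Eno2 and 0.01 for Ldhb. Of 20 hypoxia-induced genes, 3 were called lower: Hmox1, Hilpda, which coats lipid droplets, at 24.8 and 5.57 RPKM, and the oxygen sensor Egln3 at 4.43 and 0.861 RPKM. Vegfa, the vascular growth factor, stood at 1.83 and 1.701 RPKM.

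Phagocyte genes did not share a direction. Of the 22 genes that mark disease-associated microglia, 4 were called higher and 2 lower at day 10, and the median was 0.16. Of the 22, 3 reached 1 RPKM at day 10 alone and had to lie above 0. The 16 homeostatic microglia markers had a median of 0.04, with 1 called higher and 0 lower. The 14 genes of Fc gamma receptors and their partners had a median of -0.07, with 0 called in either direction. Tyrobp, the adaptor through which TREM2 signals, stood at 43.9 RPKM in sham, then 28.7 (4 h), 102 (day 1), 293 (day 3) and 335 (day 10), and C1qa, a chain of the first complement component, at 108 RPKM in sham, then 80.1 (4 h), 91.3 (day 1), 780.1 (day 3) and 1044 (day 10). Csf1r, the receptor that keeps microglia alive, stood at 40.6 and 50.3 RPKM and Tmem119, a marker of resident microglia, at 48.1 and 46.2 RPKM. All of these were above sham at both times. P2ry12, a purine receptor of resting microglia, stood at 2.56 and 2.72 RPKM, and Cx3cr1, the fractalkine receptor, was called higher at 4.04 and 9.88 RPKM. In bulk tissue, fewer cells of a type and less RNA of a gene per cell cannot be told apart.

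Single genes that phagocytes express were called lower at day 10. They are named by size and membership of several lists and are not a group of their own. Lgals3 (galectin 3) stood at 2.37 RPKM in sham, then 0.679 (4 h), 28.1 (day 1), 198 (day 3) and 38.5 (day 10), so the day 3 level was 5.14-fold (counting interval 4.88 to 5.42) above day 10. Plin2, which coats lipid droplets, stood at 2.31 RPKM in sham, then 2.22 (4 h), 17.03 (day 1), 77.4 (day 3) and 14.4 (day 10), a difference of 5.38-fold (counting interval 5.06 to 5.73). Arg1 (arginase 1), a marker of alternatively activated macrophages, stood at 0.16 RPKM in sham, then 0.0195 (4 h), 1.37 (day 1), 10.2 (day 3) and 0.0841 (day 10), which left it near 0 at day 10. Lgals1 (galectin 1) stood at 509 RPKM at day 3 and 78.8 RPKM at day 10, and Adam8, a membrane protease of leukocytes, at 12.3 and 1.72 RPKM. Mmp12, the macrophage elastase, stood at 3.302 RPKM at day 3 and 0.193 RPKM at day 10, and C5ar1, the receptor of the complement fragment C5a, at 10.1 and 3.25 RPKM. Cd68, a lysosomal glycoprotein of phagocytes, and Spp1 (osteopontin) were also called lower. Like Lgals3 and Lgals1, they remained above their day 1 level. Cd68 stood at 12.8 RPKM in sham, then 10.3 (4 h), 24.6 (day 1), 211 (day 3) and 81.9 (day 10). Spp1 stood at 1.97 RPKM in sham, then 1.76 (4 h), 6.22 (day 1), 62.2 (day 3) and 30.3 (day 10). Ch25h, which oxidises cholesterol, stood at 9.97 and 3.83 RPKM. Of 15 genes of lipid droplets and fatty acid handling, 3 were called lower (Plin2, Hilpda and Fabp7) and 6 lay above 0, with a median of -0.08. The list of monocytes and macrophages had 2 of 12 members called lower, Arg1 and Lgals3, and 1 higher, Lyz2, with a median of -0.38. Of the 12, 4 reached 1 RPKM at day 3 alone and had to lie below 0, and 1 at day 10 alone. Without the floor, over 21 genes, the median was -0.19. Ly6c2, a marker of inflammatory monocytes, stood at 11.01 and 12.5 RPKM, whereas Ccr2, another such marker, was near 0 at 0.063 and 0.0709 RPKM.

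Some lipoprotein genes were called higher. Apoe, the main carrier of lipid in brain, stood at 952 RPKM in sham, then 726 (4 h), 513 (day 1), 1096 (day 3) and 4442 (day 10), so day 10 was 4.05-fold (counting interval 4.02 to 4.09) above day 3. Apoc1, which modulates lipoprotein uptake, had the highest log2 ratio of the protein coding genes (2.90), at 1.97 RPKM in sham, then 0.497 (4 h), 0.899 (day 1), 4.29 (day 3) and 38.4 (day 10), a difference of 8.95-fold (counting interval 6.91 to 11.6). Apoc4 stood at 0.336 and 8.41 RPKM, a larger plain ratio of 25.1-fold (counting interval 15.7 to 42.7). The value of Apoc4 is uncertain because its exons overlap those of Gm44805 on the same strand. Apoe, Apoc1, Apoc4 and Apoc2 are neighbours, all on the minus strand, at chr7:19696109-19699188, minus strand, chr7:19689481-19692660, minus strand, chr7:19678083-19681479, minus strand and chr7:19671579-19677941, minus strand. Apoc2, the activator of lipoprotein lipase, differed less than its neighbours, at 0.356 RPKM in sham, then 0 (4 h), 0.292 (day 1), 12.3 (day 3) and 17.6 (day 10), and had most of its increase over day 1 by day 3. The cholesterol exporters Abca1 and Abcg1 stood at 1.86 and 3.75 RPKM and 7.72 and 12.1 RPKM, with log2 ratios of 0.73 and 0.59, inside the limit. Lpl, the lipase itself, stood at 1.12 and 1.01 RPKM. Over the list of lipoprotein and efflux genes, 3 of 15 were called higher and 1 lower, with a median of 0.48.

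Of other genes that phagocytes express, Cst7, Lyz2 and Clec7a were called higher. Cst7 (cystatin F), an inhibitor of lysosomal proteases, stood at 1.06 RPKM in sham, then 0.132 (4 h), 1.42 (day 1), 13.3 (day 3) and 52.9 (day 10). Lyz2 (lysozyme) stood at 10.7 RPKM in sham, then 3.94 (4 h), 26.4 (day 1), 97.9 (day 3) and 245 (day 10), and Clec7a (dectin 1), a receptor for fungal glucans, at 0.987 RPKM at day 3 and 4.11 RPKM at day 10. Trem2, the lipid-sensing receptor of microglia, stood at 45.8 and 73.2 RPKM, a difference of 1.597-fold (counting interval 1.54 to 1.65), and Gpnmb, a glycoprotein of lipid-laden phagocytes, at 18.1 and 25.2 RPKM, both inside the limit. Of the cathepsins, Ctss was called higher, at 59.8 and 151 RPKM, and the related protease Lgmn (legumain) lower, at 178 and 83 RPKM, while the most abundant member, Ctsd, stood at 1631 and 1489.6 RPKM. The list of lysosomal hydrolases and membrane proteins had 1 of 32 members called lower and 0 higher.

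**Figure D4:**
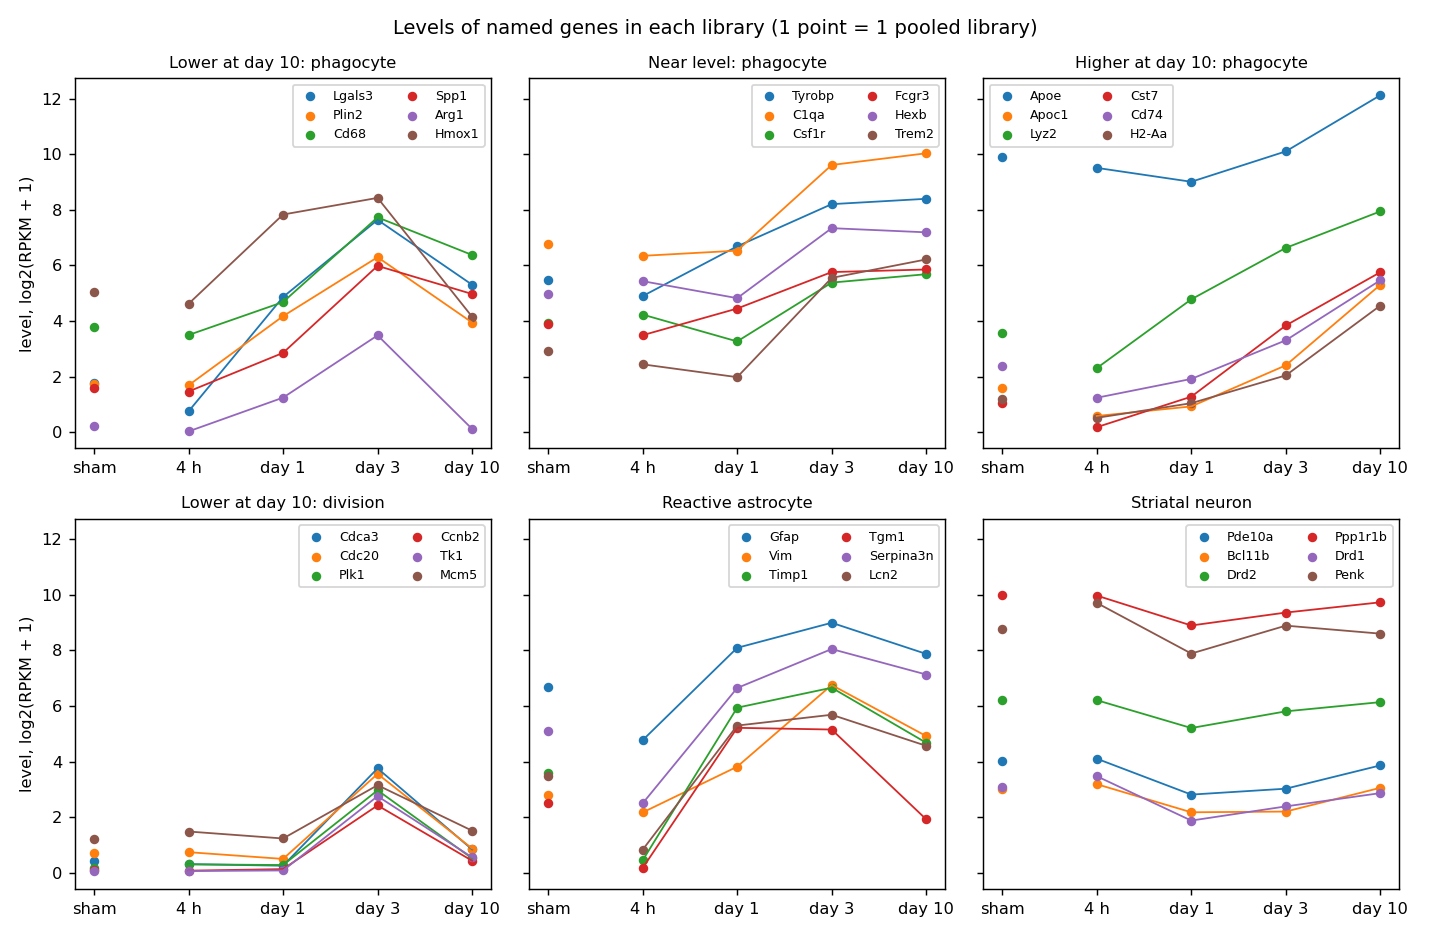
Level of named genes as log2(RPKM + 1) in sham and in the 4 stroke libraries (each point is 1 pooled library, lines join the stroke times, which are not evenly spaced). Lgals3, Plin2, Arg1 and Hmox1 peaked at day 3, Tyrobp and C1qa held their day 3 level, and Apoe, Apoc1, Cd74 and H2-Aa were highest at day 10.

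MHC class II genes, whose products show antigen to helper T cells, were higher at day 10. In the list of MHC class II and co-stimulation, 6 of 11 genes compared were called higher and 1 lower, with a median of 1.05 (length-centred 1.20), against 0.674% of all genes called higher. The list names 17 genes, 15 of them in the table, and without the floor their median was 0.44. The chains H2-Aa, H2-Eb1 and H2-Ab1 stood at 3.12 and 22.5 RPKM, 5.82 and 24.7 RPKM and 9.395 and 20.6 RPKM. For H2-Aa the other libraries were 1.31 in sham, 0.43 at 4 h and 1.06 at day 1, so day 10 was the highest of the 5. Cd74, the invariant chain that escorts them, stood at 4.199 RPKM in sham, then 1.36 (4 h), 2.77 (day 1), 8.88 (day 3) and 43.1 (day 10). Reads of these 4 genes were not whole under the annotation used, so they have no counting interval. Cd83, which stabilises surface MHC class II, stood at 5.42 RPKM at day 3 and 14.1 RPKM at day 10, a difference of 2.596-fold (counting interval 2.27 to 2.97), and Ctss, which trims the invariant chain, was the remaining one of the 6. The member called lower was Ifi30, a thiol reductase that unfolds antigen, at 3.88 RPKM in sham, then 1.89 (4 h), 5.17 (day 1), 84.1 (day 3) and 27.3 (day 10). The peptide exchange chains H2-DMa and H2-DMb1 were level, at 10.9 and 10.8 RPKM and 6.53 and 7.24 RPKM. Of MHC class I and peptide loading genes, 1 of 18 was called higher, H2-Q6 at 10.96 and 24.8 RPKM, and H2-K1, H2-D1 and B2m stood at 125 and 187 RPKM, 134 and 254 RPKM and 249 and 238 RPKM. The class I genes resemble each other closely, so single values are uncertain.

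The promoters of H2-Aa and H2-Eb1 are shown because these chains had the highest ratios of the class II chains. A CCAAT box on either strand, called the Y box, is a known element of class II promoters. The windows have the same layout and source as those above, at chr17:34287774-34288073 (minus strand) and chr17:34305617-34305916 (plus strand), and capitals mark CCAAT or ATTGG.
H2-Aa: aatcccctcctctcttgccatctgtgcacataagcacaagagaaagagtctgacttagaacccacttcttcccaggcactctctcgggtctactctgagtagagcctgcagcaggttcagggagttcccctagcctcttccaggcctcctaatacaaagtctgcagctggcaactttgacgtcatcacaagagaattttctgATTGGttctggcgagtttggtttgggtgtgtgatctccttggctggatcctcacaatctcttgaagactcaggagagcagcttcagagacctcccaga
H2-Eb1: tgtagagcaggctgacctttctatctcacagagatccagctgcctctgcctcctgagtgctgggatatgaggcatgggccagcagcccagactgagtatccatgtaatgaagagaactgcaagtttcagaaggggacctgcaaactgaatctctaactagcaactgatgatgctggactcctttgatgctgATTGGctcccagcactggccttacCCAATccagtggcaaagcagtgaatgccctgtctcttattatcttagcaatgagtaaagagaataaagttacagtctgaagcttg
ATTGG began at base 203 in H2-Aa and at base 192 in H2-Eb1. CCAAT on either strand occurred in 6 of the 8 matched genes of the list, that is in 66.7% of their windows, against 37.4% of all windows.

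Of 28 T and NK cell genes listed, 11 reached 1 RPKM, and 3 of these were called higher and 0 lower, with a median of 0.68. Of the 11, 6 reached 1 RPKM at day 10 alone and had to lie above 0, all 3 called genes among them. Without the floor, over the 24 genes in the table, the median was 0.52, and a floor of 5 RPKM gave 0.46. Of 5 B and plasma cell genes compared, 1 was called higher, Igkc, and 3 lay below 0, with a median of -0.24 (0.05 without the floor, over 7 genes). Cd8b1, a chain of the CD8 receptor of cytotoxic T cells, stood at 0.24 RPKM in sham, then 0.0147 (4 h), 0.0728 (day 1), 0.0638 (day 3) and 1.62 (day 10), a difference of 25.3-fold (counting interval 6.76 to 216). Nkg7, a granule protein of cytotoxic cells, stood at 0.414 RPKM at day 3 and 2.39 RPKM at day 10, and Ltb (lymphotoxin beta) at 0.531 and 2.57 RPKM. The T cell receptor constant genes Trac, Trbc1 and Trbc2 stood at 0.101 and 1.02 RPKM, 3.25 and 6.396 RPKM and 9.096 and 14.6 RPKM, inside the limit. Cd3e and Cd8a, which define T cells, stayed under the floor at 0.0058 and 0.403 RPKM and at 0.039 and 0.699 RPKM. Thy1, which neurons also express, made up most of the list's summed level and stood at 131 and 125 RPKM. Lag3, a receptor of activated T cells that neurons and microglia also express, stood at 3.45 RPKM in sham, then 2.96 (4 h), 1.01 (day 1), 4.78 (day 3) and 34.5 (day 10), a difference of 7.22-fold (counting interval 6.26 to 8.36). Ccl5, a chemokine that attracts T cells, stood at 2.37 RPKM at day 3 and 11.3 RPKM at day 10, a difference of 4.77-fold (counting interval 3.49 to 6.63). Igkc, the constant part of the immunoglobulin kappa chain, stood at 0.4 and 5.29 RPKM, while Ighm stood at 14.5 and 10.9 RPKM.

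Haemoglobin genes were higher at day 10. The 4 haemoglobin genes held 0.0979% of reads at day 3 and 0.374% at day 10, against 0.277% in sham, 0.358% at 4 h and 0.222% at day 1, so day 3 was the lowest of the 5 libraries. Hbb-bt stood at 728 RPKM in sham, then 823 (4 h), 677 (day 1), 224 (day 3) and 1147 (day 10), and Alas2, the haem synthesis enzyme of red cells, at 1.36 RPKM at day 3 and 6.75 RPKM at day 10. Of 7 red cell genes compared, 5 were called higher, with a median of 1.66. Hba-a1 and Hba-a2 are near-identical copies, and their values cannot be separated with certainty. In the same 5 libraries, Ccl5 stood at 0.441 RPKM in sham, then 0.0227 (4 h), 0.607 (day 1), 2.37 (day 3) and 11.3 (day 10). Cd74 stood at 4.199 RPKM in sham, then 1.36 (4 h), 2.77 (day 1), 8.88 (day 3) and 43.1 (day 10). The part of blood in the lymphocyte and MHC values was not tested.

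Chemokines and complement genes split by member. Ccl2 and Ccl7, which attract monocytes, were called lower, at 5.93 RPKM in sham, then 2.58 (4 h), 83.05 (day 1), 10.4 (day 3) and 2.86 (day 10) for Ccl2 and 3.69 and 0.858 RPKM for Ccl7. Ccl3 and Ccl4 stood at 10.4 and 9.49 RPKM and 9.32 and 10.003 RPKM. Cxcr4, a receptor for stromal chemokine, was called higher, at 1.07 and 5.02 RPKM, and Pf4 (platelet factor 4) lower, at 6.203 and 2.195 RPKM. Over 14 CC chemokines and receptors, 1 was called higher and 2 lower. Of 16 complement genes, C3, the central component, was the 1 called higher, at 0.199 RPKM in sham, then 0.0719 (4 h), 0.168 (day 1), 0.575 (day 3) and 3.62 (day 10), and C5ar1 the 1 called lower. Of the 16, 4 reached 1 RPKM at day 10 alone and had to lie above 0, C3 among them. C4b stood at 13.3 and 24.4 RPKM. Of 34 interferon response genes, 0 were called higher and 1 lower, Ifitm3 at 320.3 and 137 RPKM, with a median of 0.15, while Igtp and Ifit3 lay at the top of the list with log2 ratios of 0.83 and 0.80. The acute phase gene Saa3 stood at 0.376 RPKM in sham, then 0.0334 (4 h), 5.66 (day 1), 4.09 (day 3) and 27.3 (day 10), a difference of 6.68-fold (counting interval 5.81 to 7.71), and Gdf15, a stress cytokine, at 1.47 and 4.58 RPKM.

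Lists of reactive astrocyte genes did not share a direction. Of 10 pan-reactive genes, 4 were called lower and 0 higher, with a median of -0.69. Without the floor, over 13 genes, the median was -0.46, short of the 0.5 used to call a list. Gfap, the filament protein of astrocytes, stood at 102 RPKM in sham, then 26.3 (4 h), 272 (day 1), 509 (day 3) and 234 (day 10), so day 3 was 2.18-fold (counting interval 2.14 to 2.21) above day 10. Vim (vimentin) stood at 5.904 RPKM in sham, then 3.51 (4 h), 13.1 (day 1), 107 (day 3) and 29.3 (day 10), and the protease inhibitor Timp1 at 11.1 RPKM in sham, then 0.368 (4 h), 60.4 (day 1), 100.03 (day 3) and 24.6 (day 10). Lcn2 (lipocalin 2), a member that neutrophils also express, was the remaining one of the 4, at 50.5 and 22.7 RPKM, and Serpina3n stood just inside the limit at 264 and 139 RPKM. Nes (nestin), the filament of immature cells, stood at 5.97 RPKM at day 3 and 0.873 RPKM at day 10. Of 6 A2 astrocyte genes compared, 4 were called lower, with a median of -1.33. Of 12 listed genes 11 were in the table, and without the floor their median was -0.24. Tgm1 (transglutaminase 1) led these at 4.71 RPKM in sham, then 0.13 (4 h), 36.2 (day 1), 34.6 (day 3) and 2.799 (day 10), below sham at day 10. S100a10, Tm4sf1 and Clcf1 followed at 86.4 and 25.4 RPKM, 8.54 and 2.58 RPKM and 2.29 and 0.393 RPKM. The A1 list had 0 of 8 called higher and 1 lower, and 6 lay above 0, with a median of 0.39, and H2-D1 and H2-T23 of it belong also to MHC class I. The A1 and A2 lists are small and the difference between them was not tested.

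Of 19 general astrocyte genes, 15 lay above 0 and 1 was called higher, with a median of 0.32. The one called was Slc1a2, the main glutamate transporter, just past the limit. It stood at 40.7 RPKM in sham, then 34.2 (4 h), 21.96 (day 1), 20.1 (day 3) and 41.2 (day 10), so day 10 was at the level of sham. Slc1a3, the second astrocyte glutamate transporter, stood at 6.31 RPKM in sham, then 5.87 (4 h), 3.48 (day 1), 3.78 (day 3) and 7.71 (day 10), and the gap junction gene Gja1 (connexin 43) at 1.67 and 3.41 RPKM. Sparcl1 (hevin), which astrocytes secrete at synapses and which is outside the list, was called higher at 61.7 RPKM in sham, then 65.6 (4 h), 42.4 (day 1), 28.3 (day 3) and 69.5 (day 10). Lower within the list were the folate enzyme Aldh1l1, at 21.7 and 11.5 RPKM, and Acsbg1, at 55.4 and 35.8 RPKM.

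Cytoskeletal, calcium-binding and matrix genes showed 2 patterns. Of 24 actin genes, 5 were called lower and 21 lay below 0, with a median of -0.67 (length-centred -0.52). Actb (beta actin) stood at 546 RPKM in sham, then 780.2 (4 h), 739.8 (day 1), 1331 (day 3) and 559 (day 10), and Tagln2 and Capg, which bind actin, at 55.4 and 12.1 RPKM and 56.4 and 13.95 RPKM. Tagln (transgelin), a gene of smooth muscle, stood at 50.6 and 7.35 RPKM, and the tubulin Tubb6 at 5.09 RPKM in sham, then 3.94 (4 h), 33.97 (day 1), 57.4 (day 3) and 6.2 (day 10). Of 18 annexins and S100 genes, 7 (38.9%) were called lower, against 2.98% of all genes. The median was -0.49 (length-centred -0.36), and most members are short genes. S100a11, S100a6 and Anxa2 stood at 120.2 and 22.5 RPKM, 201 and 59.2 RPKM and 25.5 and 6.63 RPKM, while S100b, the astrocyte member, stood at 35 and 45.5 RPKM. Of 10 coagulation and plasminogen genes, 4 were called lower, with a median of -0.90 (-0.14 without the floor, over 17 genes). Plau (urokinase), an activator of plasminogen, was among them at 8.37 RPKM at day 3 and 3.396 RPKM at day 10. The tissue activator Plat stood at 2.03 and 2.13 RPKM.

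Of 12 fibroblast genes, 3 were called higher and 0 lower, with a median of 0.31 (0.14 without the floor, over 21 genes): Col1a1 and Col3a1, the fibrillar collagens of scar, at 0.343 RPKM in sham, then 0.385 (4 h), 0.184 (day 1), 0.653 (day 3) and 3.38 (day 10) for Col1a1 and 0.412 and 2.24 RPKM for Col3a1, and Igfbp5. Col1a2, the partner chain of Col1a1, stood inside the limit at 0.314 and 1.16 RPKM. These 3 collagens reached 1 RPKM at day 10 alone and had to lie above 0. Of 8 basement membrane genes, 0 were called in either direction, with a median of 0.16. Igfbp5 and Igfbp2, which bind insulin-like growth factors, are neighbours on chromosome 1, at chr1:72857932-72874884, minus strand and chr1:72824503-72852474, plus strand. They differed in opposite directions. Igfbp2 stood at 9.15 RPKM in sham, then 15.5 (4 h), 12.99 (day 1), 119.8 (day 3) and 19.8 (day 10), and Igfbp5 at 6.75 RPKM in sham, then 6.54 (4 h), 3.77 (day 1), 3.51 (day 3) and 18.3 (day 10). Igf1 itself stood at 0.867 and 1.03 RPKM. Mmp3, a protease of matrix, was called higher at 1.22 and 4.78 RPKM. The 13 proteoglycan and scar matrix genes had 0 called in either direction, with a median of 0.08.

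Of 8 neuron lists, 5 had a median above 0.13, the size of the largest shift that a rescaling gave, and 0 members of any of the 8 were called higher. That rescaling raised ratios, so it could not have lowered these medians. Members called lower were 3 of the axon growth list, 2 of the interneurons and 1 of the cortical excitatory neurons. Of the 23 medium spiny neuron genes, 19 lay above 0 and 0 were called in either direction, with a median of 0.31 (length-centred 0.34). Bcl11b (CTIP2), the transcription factor of these neurons, stood at 7.19 RPKM in sham, then 8.13 (4 h), 3.53 (day 1), 3.61 (day 3) and 7.34 (day 10), and Pde10a, their phosphodiesterase, at 15.4 RPKM in sham, then 16.2 (4 h), 6.04 (day 1), 7.15 (day 3) and 13.6 (day 10). Both were lower at day 1 and day 3 than in sham. The neuropeptides of the same cells had log2 ratios below 0, with -0.37 for Pdyn, -0.35 for Tac1 and -0.29 for Penk, and Penk stood at 474 and 388 RPKM. Dopamine receptors Drd1 and Drd2 had ratios of 0.48 and 0.33. Of 26 presynaptic genes, 23 lay above 0, with a median of 0.35 (length-centred 0.19), and of 22 voltage-gated channel genes 21, with a median of 0.45 (length-centred 0.31). Of 20 glutamate receptor and postsynaptic genes, 18 lay above 0, with a median of 0.40 (length-centred 0.17). These are lists of long genes, and the part of length was not tested. Of 13 striatal interneuron genes, 2 were called lower, the peptides Npy at 74.1 RPKM in sham, then 118 (4 h), 118 (day 1), 118 (day 3) and 56.2 (day 10) and Cck at 55.8 RPKM in sham, then 111 (4 h), 136 (day 1), 100.2 (day 3) and 49.4 (day 10). Of 20 myelin genes, 15 lay above 0 and 1 was called lower, Trf (transferrin) at 138 and 59.1 RPKM, while Mbp, the myelin basic protein, stood at 480.5 and 651 RPKM.

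Ribosomal protein and mitochondrial transcripts took smaller shares at day 10. Of 55 cytosolic ribosomal protein genes, 53 lay below 0 and 1 was called lower, with a median of -0.46 (length-centred -0.29). With further members, 79 in all, these genes held 4.90% of reads at day 3 and 3.42% at day 10. All 13 protein coding genes of the mitochondrial genome lay below 0 and 0 were called, with a median of -0.53 (length-centred -0.35), and mt-Co3, a subunit of cytochrome oxidase, stood at 6267 RPKM in sham, then 12858 (4 h), 15059.9 (day 1), 6498 (day 3) and 3303 (day 10). Of 15 endothelial genes, 14 lay below 0 and 1, Plvap, a protein of leaky vessels, was called lower at 4.76 and 1.78 RPKM, while Cldn5, a tight junction protein, stood at 45.7 and 36.8 RPKM.

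**Figure D5:**
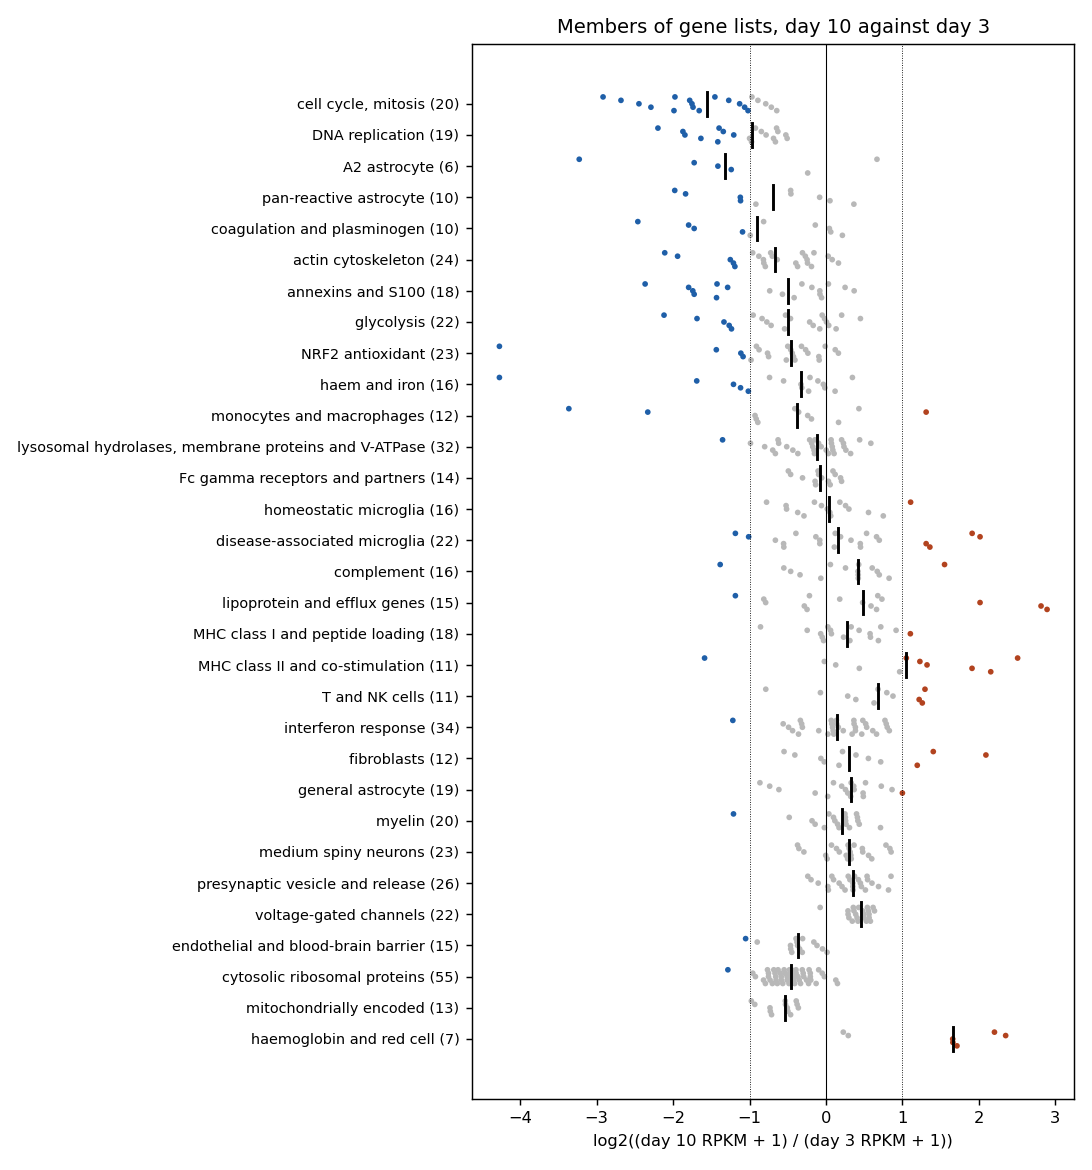
Log2 ratio of each member compared (points, with the number of members in brackets) and the median (black bars) of 31 gene lists. Red points lie at or above 1 and blue points at or below -1 (dotted lines). The lists of mitosis and A2 astrocytes have the lowest medians and that of haemoglobin and red cells the highest.

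Of 216 microRNA loci compared, 46 (21.3%) were called lower and 10 (4.63%) higher, against 2.98% and 0.674% of all genes. Their median exon length was 80 bases, so few reads can move a locus past the limit. Among 22 mitochondrial tRNAs 10 (45.5%) were called lower, and among 20 rRNA genes 11 (55%) were called higher and 1 lower. Mir9-2, the noncoding gene with the lowest log2 ratio (-4.15), stood at 0.927 RPKM in sham, then 23.6 (4 h), 0 (day 1), 16.8 (day 3) and 0 (day 10), from 51 reads at day 3 and 0 at day 10, where a count of 0 allows up to 3 reads. Its exons overlap those of C130071C03Rik on the same strand, so its value is uncertain. Mir9-1 and Mir9-3 stood at 13.8 and 0.234 RPKM and 13.7 and 0 RPKM, and Mir99a at 8.01 and 0 RPKM. The tRNA gene mt-Td stood at 27.98 RPKM in sham, then 346 (4 h), 190.3 (day 1), 279.9 (day 3) and 32.4 (day 10). These loci were thus high at 4 h and day 3 and low in the other 3 libraries for Mir9-2, whereas mt-Td was high also at day 1. All 3 Mir9 loci encode the same mature pair, shown because reads of the loci cannot be told apart by it. The sequences are those of RefSeq on GRCm38.p6, with the seed (bases 2 to 8) in capitals.
miR-9-5p: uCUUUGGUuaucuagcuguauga
miR-9-3p: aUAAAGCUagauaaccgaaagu
miR-99a-5p: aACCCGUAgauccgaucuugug
The 3 seeds differ from each other. The cause of these differences was not tested. The highest noncoding gene was Mir6978, at 0.415 and 4.75 RPKM, from few reads.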

How the data were processed

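Total RNA of micro-punched caudate putamen was sequenced as 5 pooled libraries, and those of day 3 and day 10 were compared, with sham, 4 h and day 1 used only to place levels. Tools named in the submitters' processing notes are HISAT2 2.1.0, StringTie 1.3.4d and Trimmomatic 0.36, with the build GRCm38 and no roles. No source used here says whether strand entered the counting, so overlapping antisense genes cannot be told apart (4848 genes compared share exon bases with another gene, 22 of the higher and 149 of the lower ones). Per the file headers, the authors deposited RPKM values per gene and library, and for each pair of libraries a log2 fold and its GFOLD counterpart (setting 0.01), which is shrunk where reads are few.

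Identifiers were matched to GENCODE mouse release 21 (19179 of 19221, 99.8%). Genes with at least 1 RPKM at day 3 or day 10 were compared as log2((day 10 + 1)/(day 3 + 1)), with a pseudocount of 1 RPKM. RPKM times union exon length gave whole reads, within 0.02, for 90.4% of values below 5000 reads in either library, and so the depth. Intervals are exact conditional binomial intervals at 95% on reads divided by 2, in case both mates of a pair were counted. Whether they were is not settled, as 55.7% of the lowest recovered counts at day 3 and 54.9% at day 10 were even. Without the division the intervals would be narrower. They are given where reads were whole in both libraries. With 1 library per time there was no test, SD or p-value. Pooled animals give no measure of the spread between them.

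The 66 lists (1346 genes, 1277 in the table, 995 compared) were chosen with earlier results of these data known, so list counts are descriptions. Named genes are the 15 highest and 15 lowest protein coding genes, list members past the limit, up to 6 further members per list, defining markers, and the highest and lowest noncoding gene. Scripts used Python 3.11.15, numpy 2.4.6, pandas 2.3.3 and scipy 1.17.1 and were tested on simulated data. Alternatives were other pseudocounts, floors, scalings, size limits, gene classes and the authors' own folds. Centring by gene length or GC content in 20 bins was chosen after seeing the data. Some genes are not reported here.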

Additional observations from a re-analysis of the deposited data

How the results depend on the processing

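The counts of 80 higher and 354 lower genes stayed within 1.5 times under median-of-ratios scaling (79 and 370), trimmed-mean scaling (78 and 378), no filter (80 and 354), the authors' GFOLD value (72 and 351), a counting interval that excludes 1 (61 and 306) and centring by GC content (90 and 332) or gene length (114 and 276). They became 221 and 562 with a pseudocount of 0.1 RPKM, 489 and 1234 at 1.5-fold, 29 and 112 at 3-fold, 39 and 230 among protein coding genes, and 257 and 593 by the log2 fold the authors deposited. The higher count was 122 with a pseudocount of 0.5 RPKM and 46 with a floor of 5 RPKM. The lower count was 191 without mitochondrial, ribosomal RNA, small RNA and predicted genes. That rescaling divided day 10 by a factor of -0.13 on the log2 scale, which raises every ratio by the same amount. Genes and lists below 0 by less than this therefore have no set direction. Positive ratios could not lose their sign under it, so it is no check on them. Median-of-ratios and trimmed-mean scaling moved ratios by under 0.1. The floor of 5 RPKM moved the median of all genes to -0.16.

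All 10 list medians past 0.5 in size kept their sign under the alternatives run. With a pseudocount of 0.1 RPKM the medians were -1.72 (A2 astrocyte), -1.80 (DNA replication), 1.28 (MHC class II), -3.04 (mitosis) and -1.26 (coagulation), and with 0.5 RPKM that of A2 was -1.60. Without the floor they were -0.24 (A2), 0.44 (MHC class II), -0.14 (coagulation) and -0.46 (pan-reactive), all short of 0.5 because more low genes enter. With a floor of 5 RPKM they were -1.57 (A2), 1.23 (MHC class II), -2.57 (mitosis), -1.41 (coagulation) and -1.12 (pan-reactive), and that of T and NK cells was 0.46. Length-centring gave 1.20 (MHC class II), -0.52 (actin), 1.88 (haemoglobin) and -0.35 (mitochondrial), and GC-centring 1.77 (haemoglobin). Members free of exon overlap gave -0.83 (A2), 1.23 (MHC class II), -0.85 (actin) and -1.02 (pan-reactive). Of 1779 values of 152 named genes under alternatives, 0 were counted as reversed. A changed pseudocount or floor cannot change the sign of a gene, and the scalings moved ratios by at most 0.13. For genes with large ratios the outcome under those alternatives was therefore set in advance and is no check. Genes below 0 by less than 0.13 have no set direction, as said above. No paired analysis was possible because each time is 1 pooled library. Depth limited short genes even at a few RPKM, such as Mir6978 at 4.75 RPKM at day 10, with a counting interval of 0.792 to 278. Genes under 1 RPKM at both times were not compared, and spread between animals is unknown.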

Other observations

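Some values outside the groups above were singled out after they were seen. Scgb1c1, S100a5 and Omp, genes known from olfactory tissue, were high in the day 3 library alone. Scgb1c1 stood at 0 RPKM in sham, then 0.383 (4 h), 0.0949 (day 1), 5.25 (day 3) and 0.229 (day 10), S100a5 at 0 RPKM in sham, then 0.403 (4 h), 0.05 (day 1), 1.698 (day 3) and 0 (day 10), and Omp, the olfactory marker protein, at 0.187 RPKM in sham, then 0.416 (4 h), 0.101 (day 1), 1.19 (day 3) and 0.0971 (day 10). Their origin was not tested. Avp, the hormone vasopressin, was called higher at 0.082 and 1.26 RPKM.

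Of 18 axon growth and regeneration genes, 3 were called lower and 0 higher, and 7 lay above 0, with a median of -0.12. The 3 were Tubb6, Atf3 and Sprr1a. Atf3, a factor induced in injured neurons, stood at 0.961 RPKM in sham, then 5.48 (4 h), 16.4 (day 1), 9.49 (day 3) and 3.62 (day 10), and Sprr1a, a gene of regenerating axons, at 2.23 and 0.517 RPKM, while Gap43, a protein of growth cones, stood at 22.5 and 27.1 RPKM. The neutrophil proteins S100a8 and S100a9 were level at 3.82 and 3.93 RPKM and 4.53 and 5.59 RPKM, after 53.03 and 93.4 at day 1. Of 27 genes of the unfolded protein and integrated stress response, 26 lay below 0 and 2 were called lower, with a median of -0.36. Among 27 proteasome genes, 23 lay below 0 and 2 were called lower.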
